A study of Homo sapiens with 21 samples.

Results

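Of the 98404 open chromatin sites that carried at least 2 CPM (reads in a site scaled to a common library total) in Control cells, 24 lost accessibility with both shRNAs against ARID1B and kept it with both shRNAs against ARID1A. They were taken from a consensus set of 367900 sites profiled with ATAC-Seq, an assay where Tn5 inserts adapters into open DNA, so that reads over a site rise with its accessibility. Membership was set on measured values: the mean CPM of 3 Control libraries was at least 2, the means of shARID1B.2 and of shARID1B.3 were each at most 0.67 times the Control mean, and the means of shARID1A.2 and of shARID1A.4 were each at least 0.9 times that mean. The ratios of these 4 single shRNAs to Control are therefore a description of how the sites were chosen, not a finding.

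Cells of the neuroblastoma line SK-N-BE(2), long established in culture, were transduced with lentiviral particles and collected 72 h later. There were 7 groups of 3 biological replicates, 21 libraries in all: Control, shARID1A.2, shARID1A.4, shARID1B.2, shARID1B.3, and the combinations shARID1A/B.2.3 and shARID1A/B.4.2, whose names pair hairpin 2 of ARID1A with hairpin 3 of ARID1B and hairpin 4 of ARID1A with hairpin 2 of ARID1B. The Control is a non-silencing shRNA, so all groups were transduced. These libraries hold genomic DNA and so give no check of how far each hairpin lowered its target. All groups come from 1 cell line, and a hairpin can act on transcripts other than its target.

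ARID1A and ARID1B are alternative, mutually exclusive subunits of the canonical BAF complex, a SWI/SNF chromatin remodeller that uses ATP to slide or evict nucleosomes and so keeps enhancers open. A BAF particle holds one of the 2 proteins, and each can take the place of the other at many sites, so a cell that loses one paralogue usually still assembles the complex. Neuroblastoma arises from the sympathoadrenal lineage of the neural crest, and its identity genes are governed by distal enhancers bound by factors such as HAND2 and GATA3. In Control cells the promoter sites of the lineage regulators PHOX2A and HAND2 had 23.9 and 43.8 CPM, and that of DBH, the enzyme that makes noradrenaline, had 10.3 CPM. No promoter site was annotated for the blood markers PTPRC, CD3E and SPI1 or the epithelial markers EPCAM, KRT8 and CDH1. GATA3 and MYCN also lacked one, so a missing promoter annotation does not show that a gene is closed. Among the mesenchymal markers, TWIST1 had a promoter site at 41.1 CPM.

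The sequences shown are the central 300 bases of 4 of the 24 sites on the plus strand of GRCh38, in lower case. Capitals mark the E-box CATCTG or its reverse complement CAGATG, a motif read by basic helix-loop-helix factors such as TWIST1. The sites stand for the different outcomes described further on. KIAA1211, now named CRACD, an inhibitor of actin capping protein (chr4:56311139-56311438), was called lower with shARID1A/B.4.2. With shARID1A/B.2.3 it also fell, by a log2 change of -0.32 that missed the threshold of 0.01 (edgeR adjusted p = 0.0148). RAG1, the lymphocyte recombinase (chr11:36533604-36533903), was called lower with neither combination. RNU6-75P, a U6 pseudogene (chr13:90763864-90764163), was called lower with both. KC6, a long non-coding RNA (chr18:40925095-40925394), carried one of the widest differences between the combinations and holds no match. A site bears the name of the gene with the nearest transcription start site (TSS), which need not be a gene it controls, and its centre need not be its summit.
KIAA1211: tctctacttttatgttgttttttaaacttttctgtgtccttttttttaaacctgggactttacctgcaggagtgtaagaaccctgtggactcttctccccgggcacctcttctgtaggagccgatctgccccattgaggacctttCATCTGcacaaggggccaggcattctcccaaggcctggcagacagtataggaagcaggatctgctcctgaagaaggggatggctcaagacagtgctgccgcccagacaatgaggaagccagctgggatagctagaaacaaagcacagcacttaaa
RAG1: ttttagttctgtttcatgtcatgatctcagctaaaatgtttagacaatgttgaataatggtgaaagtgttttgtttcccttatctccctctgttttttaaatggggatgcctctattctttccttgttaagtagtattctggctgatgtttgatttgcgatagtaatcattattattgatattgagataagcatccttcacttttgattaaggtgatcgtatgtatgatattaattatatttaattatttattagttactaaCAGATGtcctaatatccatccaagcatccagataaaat
RNU6-75P: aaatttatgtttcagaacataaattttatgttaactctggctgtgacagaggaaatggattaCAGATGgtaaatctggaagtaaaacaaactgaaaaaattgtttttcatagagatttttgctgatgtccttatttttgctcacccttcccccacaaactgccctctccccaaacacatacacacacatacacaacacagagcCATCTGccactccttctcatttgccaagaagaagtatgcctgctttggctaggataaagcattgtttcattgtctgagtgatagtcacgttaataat
KC6: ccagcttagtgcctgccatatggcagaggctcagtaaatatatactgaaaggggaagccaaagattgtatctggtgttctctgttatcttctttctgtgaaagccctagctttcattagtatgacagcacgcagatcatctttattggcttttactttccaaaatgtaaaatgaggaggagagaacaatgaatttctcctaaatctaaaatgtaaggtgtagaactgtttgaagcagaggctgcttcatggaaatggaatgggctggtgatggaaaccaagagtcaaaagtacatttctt

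Loss of accessibility with both ARID1B shRNAs rarely left both ARID1A shRNAs near Control. Both shARID1B means were at most 0.67 times Control at 3621 sites, 3.68% of the eligible ones. At 2033 of these, 56.1%, both shARID1A means were also at most 0.67 times Control. At 3288 neither shARID1A mean reached 0.9 times Control, at 309 exactly 1 did, and at 24 both did, which are 0.0244% of the eligible sites. The mirror rule, low with both ARID1A shRNAs and at least 0.9 with both ARID1B shRNAs, was met by 403 sites, and both shARID1A means were at most 0.67 times Control at 7185. The plot of ratios at eligible sites shows the members below the main cloud.

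**Figure D1:**
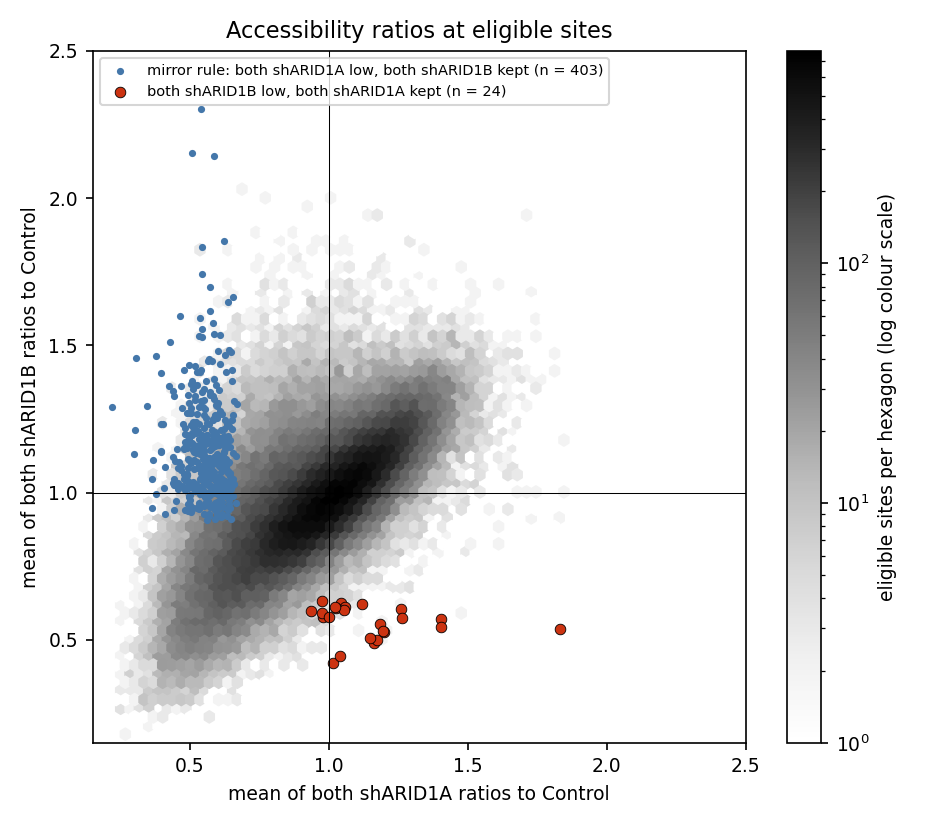
Mean ratio to Control of both shARID1A groups (x axis) and of both shARID1B groups (y axis) at eligible sites, with grey hexagons for their number on a log colour scale, red points for the 24 sites and blue points for the 403 mirror sites, both chosen on these axes. Hexagons cover ratios from 0.15 to 2.5. The main cloud rises along the diagonal, and the red points lie to its lower right.

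By construction the 24 sites had shARID1B.2 ratios between 0.491 and 0.669 and shARID1B.3 ratios between 0.245 and 0.652, with medians of 0.617 and 0.527. Their shARID1A.2 ratios ran from 0.903 to 1.68 and their shARID1A.4 ratios from 0.922 to 2.45, with medians of 1.12 and 1.05. All 6 shARID1B libraries were below all 3 Control libraries at 23 of the 24, against 11.4% of eligible sites, the exception being the LOC100506489 site. All 6 shARID1B libraries were below all 6 shARID1A libraries at 23 of the 24, against 1.29% of eligible sites, the exception being RP11-756H20.1. In the edgeR quasi-likelihood test, with Benjamini-Hochberg adjusted p under 0.01 as the call throughout, the mean of both ARID1B shRNAs was called lower than Control at 24 of 24 sites, against 3.53% of the 357029 sites tested. The mean of both ARID1A shRNAs was called higher at 4, CCDC102B, CD226, LOC100506489 and LOC102557615, against 1.67%. The rule used these contrasts, and nothing is read from the counts.

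Near the limits of the rule, membership turned on small differences. The LOC102557615 and MIR6082 sites were just inside the shARID1B.2 limit with ratios of 0.669 and 0.665, and sites near LOC101927374 (0.672) and FLJ46552 (0.679) were just outside. LINC00276 (0.652) and IMMP2L (0.649) were the closest inside for shARID1B.3, and FAM65A (0.686) and LOC100134040 (0.695) the closest outside. For shARID1A.2, AC007682.1 (0.903) and MIR6082 (0.906) were inside, and ISOC1 (0.893) and RP11-251P6.1 (0.884) outside. For shARID1A.4, RNU6-75P (0.922) and LOC100506557 (0.931) were inside, and LOC102546228 (0.8997) and LINC01163 (0.8993) outside. By Control level, CCDC102B (2.11 CPM) and RP11-756H20.1 (2.13 CPM) were inside, and LOC102724949 (1.95 CPM) and LRRC27 (1.90 CPM) outside.

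To see the pattern in libraries that had no part in the choice, the rule was applied to 2 replicate numbers of each group and the ratios were read in the libraries of the number left out, each over the Control library of that number. Leaving out replicate 1, 2 or 3 gave 30, 24 and 34 sites, of which 17, 13 and 17 were among the 24. In the left-out libraries the median shARID1B.2 ratio was 0.695, 0.626 and 0.728, and the median shARID1B.3 ratio was 0.585, 0.599 and 0.659. The median of eligible sites in the same libraries was between 0.977 and 0.991. The left-out shARID1A.2 medians were 1.09, 1.12 and 1.23, and the shARID1A.4 medians 1.10, 1.05 and 1.12. Over eligible sites the shARID1A medians were between 0.957 and 0.989. The medians kept the direction of the rule in each of these libraries, but single sites were less stable. The complete set of limits was met again by 6 of 30, 6 of 24 and 6 of 34 sites. The share of all eligible sites that met it in the left-out libraries was not computed. The combination libraries, which the rule never uses, had left-out medians of 0.806, 0.867 and 1.05 for shARID1A/B.2.3 and of 0.643, 0.657 and 0.708 for shARID1A/B.4.2, where the Control library had no part in the choice either. Over eligible sites the combination medians were between 0.939 and 0.976.

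**Figure D2:**
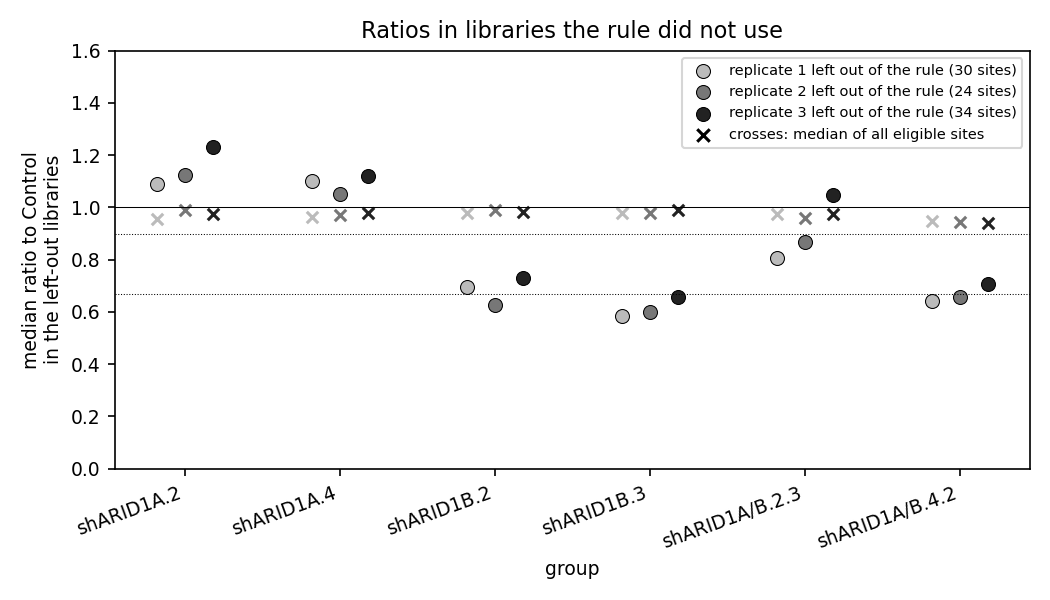
Median ratio to Control (y axis, starting at 0) for each silenced group (x axis), in the libraries of the replicate number that the rule did not use. Circles are medians over the sites chosen without that number (30, 24 and 34 sites), crosses are medians over eligible sites, and dotted lines mark 0.67 and 0.9. Circles of both shARID1B groups and of shARID1A/B.4.2 lie below their crosses for all 3 numbers.

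The values in single libraries are a description of sites that the rule chose. At the RNU6-75P site (chr13:90763685-90764342, intergenic, 634.608 kb from the nearest protein-coding start, that of the glypican gene GPC5) the 3 Control libraries had 2.25, 2.92 and 1.91 CPM. The shARID1B.2 libraries had 1.28, 1.44 and 1.48, and the shARID1B.3 libraries 0.679, 0.495 and 0.563 CPM. The shARID1A.2 libraries had 2.21, 2.93 and 2.71, and the shARID1A.4 libraries 2.21, 2.21 and 2.11 CPM. Both shARID1A groups overlapped Control here, and both shARID1B groups lay below it. This was among the sites with the fewest reads, 13 to 69 per library.

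At the KIAA1211 site (chr4:56310300-56312276, intron 2 of that gene in the deposited annotation, overlapping an exon of CRACD in GENCODE) Control had 16.4, 15.5 and 15.9 CPM. The shARID1B.2 libraries fell to 8.14, 8.28 and 7.07 and the shARID1B.3 libraries to 6.30, 6.36 and 6.45 CPM. The shARID1A.2 libraries had 18.2, 17.8 and 17.3 and the shARID1A.4 libraries 15.9, 16.2 and 14.003 CPM. With 149 to 541 reads per library, the site had 15.9 ± 0.480 CPM (SD, n = 3) in Control and 6.37 ± 0.0726 CPM in shARID1B.3, values that the rule used.

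The LOC102723430 site (chr3:113147413-113148988), in an intron of a non-coding gene and 62.803 kb from the start of BOC, a hedgehog co-receptor, had the highest Control CPM of the 24, at 33.1, 37.0 and 34.0. Its shARID1B.2 libraries had 20.0, 21.4 and 22.0 CPM and its shARID1B.3 libraries 20.0, 19.001 and 20.9 CPM. Its shARID1A.2 libraries had 36.7, 34.0 and 33.6 and its shARID1A.4 libraries 33.8, 33.3 and 31.7 CPM. Both shARID1A groups overlapped Control, with ratios of 1.002 and 0.949, and no shARID1B library reached any of them.

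At some sites an ARID1A hairpin came with values above Control. The CCDC102B site (chr18:68831574-68832901, intron 1 of the gene for a centrosomal linker protein) had 2.11, 2.16 and 2.06 CPM in Control and 4.59, 4.79 and 6.13 CPM in shARID1A.4, which lay above every Control library. Its shARID1A.2 libraries had 2.48, 2.97 and 2.25 CPM, its shARID1B.2 libraries 1.56, 0.722 and 1.48, and its shARID1B.3 libraries 1.03, 0.630 and 1.38 CPM. The LOC100506489 site (chr7:115487492-115488660, intergenic) had 3.80, 4.65 and 3.06 CPM in Control and 6.28, 7.06 and 5.98 CPM in shARID1A.2, while its shARID1A.4 libraries, at 4.59, 4.88 and 3.53 CPM, overlapped Control. At CCDC102B the shARID1A.2 libraries were also above every Control library, by less, and edgeR called neither the rise with shARID1A.2 there nor that with shARID1A.4 at LOC100506489. At RAG1 and CD226 the libraries of both ARID1A hairpins lay above every Control library as well, though edgeR called neither hairpin alone there. LUZP6 and LOC102557615 were called higher than Control with shARID1A.4 (edgeR adjusted p = 6.52e-04 and 3.20e-06). The rule sets no upper limit on the shARID1A ratios, so values above Control could enter freely.

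**Figure D3:**
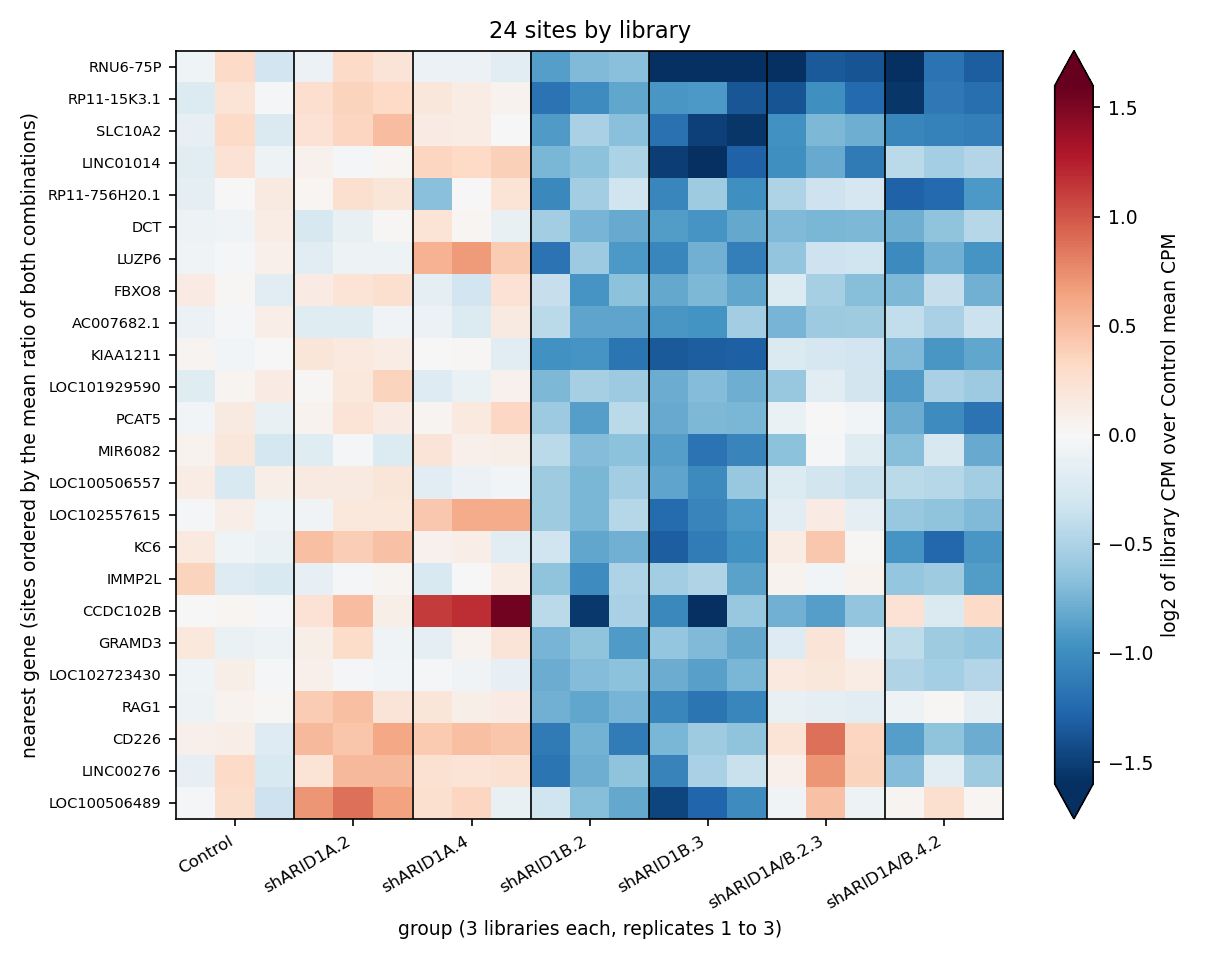
Log2 of each library's CPM over the Control mean (colour, clipped at -1.6 and 1.6) for the 24 sites (rows, named by nearest gene and ordered by the mean ratio of both combinations) in 21 libraries (columns, 3 per group). The shARID1B columns are blue in nearly all rows by the choice of sites, and the combination columns run from dark blue at RNU6-75P to near white or red at LOC100506489.

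The combinations silence ARID1B as well and had no part in the rule, so they ask whether the sites also closed when both paralogues were lowered. The comparisons with Control share the Control libraries with the rule. The mean of both combinations was called lower than Control at 15 of 24 sites, against 10.3% of sites called lower among all those tested, 26.9% among eligible sites and 43.4% among the 13780 eligible sites whose GC content lay between the lower and upper quartiles of the 24, 36.5% to 41.0%. The fitted change was below 0 at 23 of the 24. Its share over other sites was not computed, so nothing is read from that count. The median log2 change over the 24 was -0.46, against 0.03 over all tested sites, -0.07 over eligible sites and -0.34 in that GC range. All 6 combination libraries were below all Control libraries at 10 of 24, against 25.2% of eligible sites.

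The 2 combinations differed in how many of the sites they closed. shARID1A/B.4.2 was called lower than Control at 16 of 24 sites, against 7.37% of sites tested, 20.7% of eligible sites and 34.7% of those in the GC range. shARID1A/B.2.3 was called lower at 8 of 24, 33.3%, against 10.4% of sites tested, 27.8% of eligible sites and 43.7% of those in the GC range, so this share was near the eligible background. The fitted change was below 0 at 22 and 19 of the 24. The plain CPM ratio to Control was below 1 at 22 and 18 of them, and at 58006 and 52348 of the 98404 eligible sites. The median ratio to Control over the 24 was 0.643 (range 0.384 to 1.09) for shARID1A/B.4.2 and 0.826 (0.359 to 1.42) for shARID1A/B.2.3. All 3 shARID1A/B.4.2 libraries were below all Control libraries at 19 sites (33.1% of eligible sites), and all 3 shARID1A/B.2.3 libraries at 12 (32.5%). With the counts scaled on promoter sites in place of TMM, 22 and 13 sites were called lower, against 15.9% and 13.7% of sites tested.

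At the 403 mirror sites the medians of the combination ratios were 0.505 for shARID1A/B.2.3 and 0.545 for shARID1A/B.4.2, with 92.6% and 79.9% called lower. At the 2033 sites low with all 4 single shRNAs they were 0.327 and 0.338. The members' own medians of 0.826 and 0.643 lay above both sets, as a description without a test.

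Of the 24 sites, 5 were called lower with both combinations, 11 with shARID1A/B.4.2 and not the other, 3 with shARID1A/B.2.3 and not the other, and 5 with neither. These are 20.8%, 45.8%, 12.5% and 20.8% of the 24. The same patterns were shown by 6.1%, 1.28%, 4.28% and 88.4% of sites tested, by 17.9%, 2.82%, 9.91% and 69.4% of eligible sites, and by 29.9%, 4.85%, 13.9% and 51.4% of eligible sites in the GC range. The shares called with both and with shARID1A/B.2.3 alone were thus near those of eligible sites. The difference between the combinations was itself called at 6 of the 11 and at 2 of the 3. Some sites lay close to the threshold. FBXO8 had edgeR adjusted p = 0.0123 with shARID1A/B.2.3 and 0.00860 with shARID1A/B.4.2. With shARID1A/B.4.2, MIR6082 passed at 0.00978 and LINC01014 missed at 0.0122. The DESeq2 Wald test lost the shARID1A/B.4.2 calls at FBXO8, MIR6082 and GRAMD3 (adjusted p = 0.0292, 0.0355 and 0.0155). The 5 called lower with both were RNU6-75P, RP11-15K3.1, SLC10A2, DCT and LUZP6. At RNU6-75P the shARID1A/B.2.3 libraries had 0.703, 0.928 and 0.908 CPM and the shARID1A/B.4.2 libraries 0.738, 1.04 and 0.944 CPM, all below the lowest Control library. The log2 changes were -1.52 ± 0.21 and -1.34 ± 0.22 (SE; edgeR adjusted p = 3.50e-09 and 8.76e-07). At RP11-15K3.1 (chr10:90571410-90572222, 286.223 kb from the start of the serotonin receptor gene HTR7) Control had 2.40, 3.26 and 2.74 CPM, shARID1A/B.2.3 had 1.07, 1.42 and 1.18, and shARID1A/B.4.2 had 0.955, 1.26 and 1.21 CPM. Here too no combination library reached a Control library.

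The SLC10A2 site (chr13:103301891-103303806) lies 236.431 kb from the start of that ileal bile acid transporter gene. Control had 5.82, 7.87 and 5.44 CPM, shARID1A/B.2.3 had 3.25, 3.88 and 3.72, and shARID1A/B.4.2 had 3.08, 3.02 and 2.97 CPM. The DCT site (chr13:94453644-94456211) is in intron 6 of the gene for dopachrome tautomerase, a melanin-making enzyme of the neural crest-derived melanocyte. Control had 8.31, 8.46 and 9.53 CPM, and the combinations 5.36, 5.30 and 5.31 and 5.12, 5.59 and 6.38 CPM. Their log2 changes of -0.77 ± 0.12 and -0.59 ± 0.12 (SE; edgeR adjusted p = 1.43e-07 and 1.31e-04) differed by -0.19 ± 0.13, which did not pass (edgeR adjusted p = 0.398). The LUZP6 site (chr7:136325755-136327070), 349.053 kb from the MTPN start, had log2 changes of -0.48 ± 0.14 and -0.87 ± 0.15 (edgeR adjusted p = 0.00773 and 5.99e-06). Its call with shARID1A/B.2.3 was lost without Control replicate 1 or 3 or shARID1A/B.2.3 replicate 1 (edgeR adjusted p = 0.0184, 0.0491 and 0.0607), with total counts as the scale (0.0183) and in the DESeq2 Wald test (0.0256).

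RAG1 and LOC100506489 were called lower with neither combination. The RAG1 site (chr11:36532929-36534578, intron 1 of 1) had 9.86, 10.9 and 10.6 CPM in Control. Its shARID1B.2 libraries had 6.15, 5.89 and 6.24 CPM and its shARID1B.3 libraries 5.05, 4.65 and 5.06 CPM. The shARID1A/B.2.3 libraries had 9.61, 9.40 and 9.31 CPM and the shARID1A/B.4.2 libraries 9.85, 10.6 and 9.49 CPM. The combination libraries thus lay above every shARID1B library, shARID1A/B.4.2 overlapped Control, and shARID1A/B.2.3 lay just below it. The single ARID1A hairpins lay above Control, at 13.9, 14.6 and 12.0 CPM in shARID1A.2 and 12.0, 11.1 and 11.5 in shARID1A.4. Against these libraries, which the rule used, shARID1A/B.2.3 was called lower (log2 change -0.54, edgeR adjusted p = 1.16e-04). shARID1A/B.4.2 was not (-0.21, edgeR adjusted p = 0.391). The LOC100506489 site had 3.68, 5.30 and 3.63 CPM in shARID1A/B.2.3 and 3.95, 4.60 and 3.91 in shARID1A/B.4.2. The other sites called with neither combination were IMMP2L, LINC00276 and LOC100506557. IMMP2L and LOC100506557 narrowly missed the call with shARID1A/B.4.2, at log2 changes of -0.64 and -0.44 (edgeR adjusted p = 0.0112 and 0.0149). For the mean of both combinations LOC100506557 was called lower (log2 change -0.39, edgeR adjusted p = 0.00821), a call lost in the DESeq2 Wald test (adjusted p = 0.0258).

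The comparison of the combinations with each other uses no library of the rule. It may still not be fully independent of the choice. Deviations from the group mean in same-numbered libraries correlated between 0.240 and 0.576 for Control and shARID1A/B.2.3. For Control and shARID1A/B.4.2 they correlated between 0.00619 and 0.108. What this does to the comparison was not tested. shARID1A/B.2.3 was called higher than shARID1A/B.4.2 at 7 of 24 sites, against 1.43% of sites tested, 3.20% of eligible sites and 5.28% of those in the GC range. It was called lower at 2, against 3.79%, 11.5% and 12.5%. The median log2 difference over the 24 was 0.23, against 0.02 over all sites tested. All 3 shARID1A/B.4.2 libraries were below all 3 shARID1A/B.2.3 libraries at 13 of 24 (16.9% of eligible sites), and the reverse held at 3 (20.9%). With total counts or with promoter sites as the scale, the counts became 9 higher and 1 lower in both cases. The 2 combinations differ in both hairpins, so the ARID1A and the ARID1B hairpin cannot be told apart as the source of a difference.

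The widest differences were at CD226 and KC6. The CD226 site (chr18:69838495-69839800), in intron 7 of DOK6, an adaptor of receptor tyrosine kinases, and within CD226 as GENCODE draws it, is 122.656 kb from the start of the lymphocyte receptor gene CD226. Control had 3.29, 3.34 and 2.70 CPM, shARID1A/B.2.3 had 3.62, 5.71 and 3.95, and shARID1A/B.4.2 had 1.69, 1.98 and 1.80 CPM. One combination lay above every Control library and the other below every one. The single ARID1A hairpins also lay above every Control library, with 4.47, 4.22 and 4.79 CPM in shARID1A.2 and 4.15, 4.33 and 4.21 in shARID1A.4. shARID1A/B.2.3 was not called different from shARID1A.2 alone (log2 change -0.01, edgeR adjusted p = 0.978). The log2 difference between the combinations was 1.22 ± 0.17 (SE, edgeR adjusted p = 1.59e-08). At KC6 (chr18:40924777-40925711, intergenic) Control had 6.53, 5.58 and 5.40 CPM, shARID1A/B.2.3 had 6.36, 7.84 and 5.90, and shARID1A/B.4.2 had 3.04, 2.43 and 3.06 CPM, a log2 difference of 1.16 ± 0.14 (edgeR adjusted p = 8.95e-10).

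LOC102723430 and PCAT5 followed the same order. At LOC102723430 shARID1A/B.2.3 had 38.8, 39.3 and 37.6 CPM and shARID1A/B.4.2 had 24.9, 23.9 and 25.04 CPM. The first lay above every Control library and the second below every one, with a log2 difference of 0.56 ± 0.09 (edgeR adjusted p = 4.47e-07). At PCAT5, a long non-coding RNA (chr10:36219949-36220979, intergenic), Control had 6.34, 7.23 and 6.03 CPM, shARID1A/B.2.3 had 6.06, 6.57 and 6.35, and shARID1A/B.4.2 had 3.78, 3.25 and 2.88 CPM. The first overlapped Control and the second did not, with a log2 difference of 0.85 ± 0.13 (edgeR adjusted p = 1.09e-06). LOC102557615, LINC00276 and KIAA1211 made up the rest of the 7, with log2 differences of 0.51, 0.80 and 0.46. KIAA1211 had 13.6, 13.2 and 12.9 CPM in shARID1A/B.2.3 and 9.76, 8.34 and 8.99 CPM in shARID1A/B.4.2, all below every Control library. The LINC00276 call was lost without shARID1A/B.2.3 replicate 2 or shARID1A/B.4.2 replicate 1, and the KIAA1211 call without shARID1A/B.4.2 replicate 2 (edgeR adjusted p = 0.0440, 0.0171 and 0.0243).

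CCDC102B and LINC01014 went the other way. At CCDC102B shARID1A/B.2.3 had 1.24, 1.15 and 1.36 CPM and shARID1A/B.4.2 had 2.47, 1.80 and 2.61 CPM, the latter overlapping Control, with a log2 difference of -0.99 ± 0.21 (edgeR adjusted p = 3.05e-04). At LINC01014 (chr3:178168636-178169668, 103.780 kb from the start of KCNMB2, a potassium channel subunit) Control had 5.26, 6.98 and 5.64 CPM. shARID1A/B.2.3 had 3.01, 3.39 and 2.72 and shARID1A/B.4.2 had 4.43, 4.10 and 4.32 CPM, both below Control, with a difference of -0.56 ± 0.14 (edgeR adjusted p = 0.00343). The LINC01014 difference was no longer called without any one of 4 of the 6 libraries compared, its edgeR adjusted p then lying between 0.0118 and 0.0266.

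**Figure D4:**
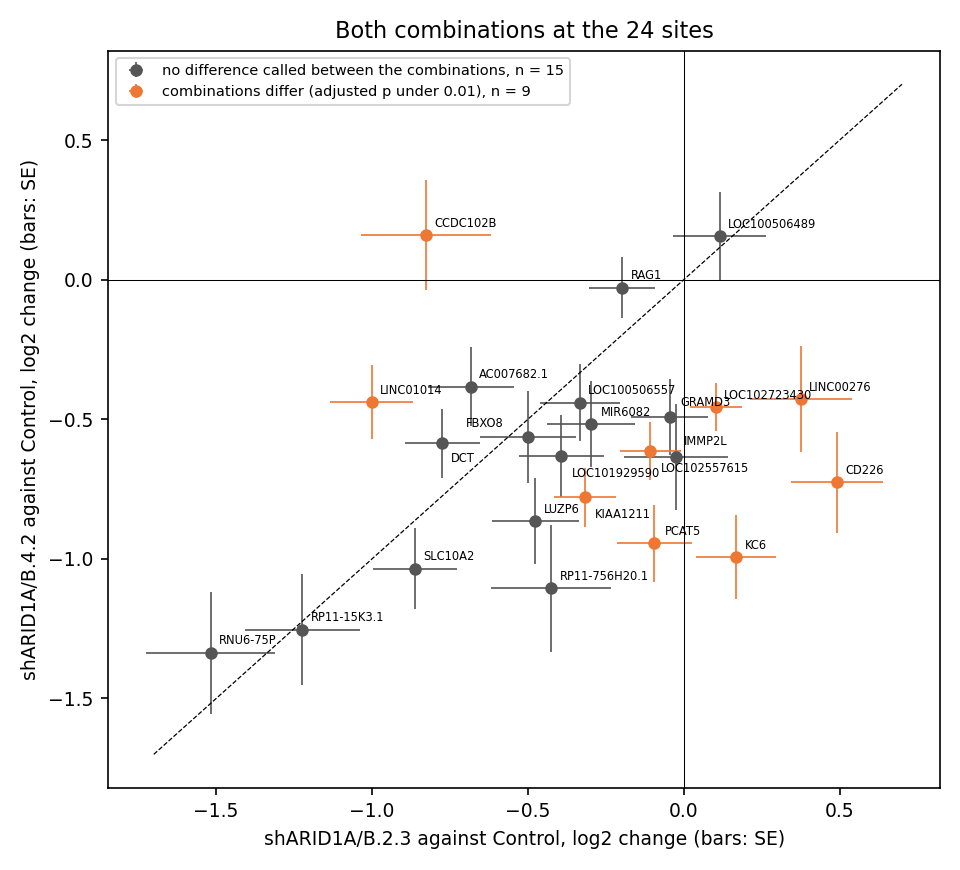
Log2 change against Control of shARID1A/B.2.3 (x axis) and shARID1A/B.4.2 (y axis) at the 24 sites, with bars of 1 SE and a dashed line of equal change. Orange points are the 9 sites where the combinations differed in edgeR, 7 of them below the dashed line and 2, CCDC102B and LINC01014, above it.

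Each combination could also be set against the single hairpins it contains, with the caution that those libraries chose the sites. Adding the ARID1B hairpin to shARID1A.2 (shARID1A/B.2.3 against shARID1A.2) was called to lower 11 of 24 sites, against 2.92% of sites tested, 9.28% of eligible sites and 16.4% of those in the GC range. Adding one to shARID1A.4 was called to lower 16, against 1.63%, 5.24% and 12.8%. The largest falls were at RNU6-75P in the first comparison, by 1.64 ± 0.20 on the log2 scale, and at LUZP6 in the second, by 1.47 ± 0.15, where shARID1A.4 alone had 7.10, 7.72 and 6.38 CPM and shARID1A/B.4.2 had 2.39, 2.84 and 2.52 CPM. At the 403 mirror sites 4.47% and 2.73% were lowered. The mirror sites were chosen for low values in these shARID1A libraries and the members for values of at least 0.9 times Control. That choice by itself favours a fall at the members and not at the mirror sites, so nothing is read from the contrast.

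The combinations were last set against the ARID1B hairpins alone. The sites were chosen for low values in these same shARID1B libraries, a choice that favours a higher value in the combination, so the values are given as a description. shARID1A/B.2.3 was called higher than shARID1B.3 alone at 12 of 24 sites, against 1.06% of sites tested, 1.53% of eligible sites and 2.55% of those in the GC range. All 3 shARID1B.3 libraries were below all 3 shARID1A/B.2.3 libraries at 21 of 24, against 13% of eligible sites. shARID1A/B.4.2 was called higher than shARID1B.2 at 3, RAG1, LOC100506489 and CCDC102B, against 1.43% of sites tested, 4.78% of eligible sites and 0.276% of those in the GC range. With promoter scaling that count was 1, RAG1. Without shARID1B.2 replicate 3 or shARID1A/B.4.2 replicate 2 the LOC100506489 call was lost, and without shARID1B.2 replicate 2 or shARID1A/B.4.2 replicate 1 or 3 the CCDC102B call.

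RAG1 was higher in both comparisons, by 0.87 ± 0.11 over shARID1B.3 and 0.74 ± 0.12 over shARID1B.2 on the log2 scale (SE). LOC100506489 was higher by 1.35 ± 0.16 and 0.74 ± 0.17. KC6, LOC102723430, LOC102557615 and KIAA1211 were called higher over shARID1B.3, by 1.29 ± 0.14, 0.89 ± 0.08, 0.95 ± 0.10 and 0.99 ± 0.11. At RP11-15K3.1 and DCT, by contrast, shARID1A/B.2.3 stood at -0.23 ± 0.19 and 0.10 ± 0.12 against shARID1B.3, and neither was called.

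What the rule did not use was where the sites lie and what they are made of. None of the 24 was annotated as a promoter, against 9.93% of eligible sites and 1.49% of mirror sites. In the deposited annotation 12 were intergenic, 10 intronic and 2 exonic. The exonic ones were the site near LOC100506557 (chr7:157525390-157527045) and the FBXO8 site (chr4:174262391-174263631), which overlaps exon 2 and a UTR of that F-box gene. The median distance to a TSS was 67.6 kb, against 32.7 kb for eligible sites and 49.1 kb for mirror sites, and 11 of 24, 45.8%, were over 100 kb away, against 23.7% and 30.5%. Other introns held sites in NRG3, which encodes an ERBB4 ligand (LOC101929590, chr10:82534900-82536301) and IMMP2L, a mitochondrial peptidase gene (chr7:111537019-111538024).

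The remaining sites were intergenic or in non-coding genes. They were LOC102557615 (chr5:166003057-166005096), 974.953 kb from the start of the teneurin gene TENM2, GRAMD3 (chr5:126519732-126520586), MIR6082 (chr4:171129677-171130840), LINC00276 (chr2:14046812-14048144) and RP11-756H20.1 (chr5:125281396-125282033). The 24 were spread over 9 chromosomes. Chromosome 7 held 4, 16.7% against 6.68% of eligible sites. Chromosomes 4, 5, 10, 13 and 18 held 3 each, 12.5% of the sites, and chromosomes 13 and 18 hold 1.68% and 0.799% of eligible sites. No 2 members were closer than 1006.91 kb.

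The sites were poor in GC. Their median GC content was 37.2% (range 34.4% to 55.7%), against 48.0% for eligible sites, 43.99% for mirror sites and 44.5% for sites low with all 4 single shRNAs. Below 43% GC lay 20 of the 24, 83.3%, against 27.3% of eligible and 41.9% of mirror sites. They were shorter than eligible sites, with a median of 1311 against 1752 bases, and longer than mirror sites (1182) and sites low with all 4 single shRNAs (1097).

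GC content moved with accessibility across the series. In the 13780 eligible sites between the GC quartiles of the 24, the median ratio was 0.876 for shARID1A.2, 0.885 for shARID1A.4, 0.969 for shARID1B.2, 0.889 for shARID1B.3, 0.786 for shARID1A/B.2.3 and 0.798 for shARID1A/B.4.2. Over all eligible sites these medians were between 0.935 and 0.976. For the combinations, which the rule did not use, the members' median of 0.826 with shARID1A/B.2.3 was above that of sites of like GC content, and their median of 0.643 with shARID1A/B.4.2 was below it. When each ratio was divided by the median of eligible sites in the same GC bin, an alternative chosen after seeing the data, 36 sites met the rule, 13 of them among the 24, and the members' medians for the combinations became 1.03 and 0.798.

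**Figure D5:**
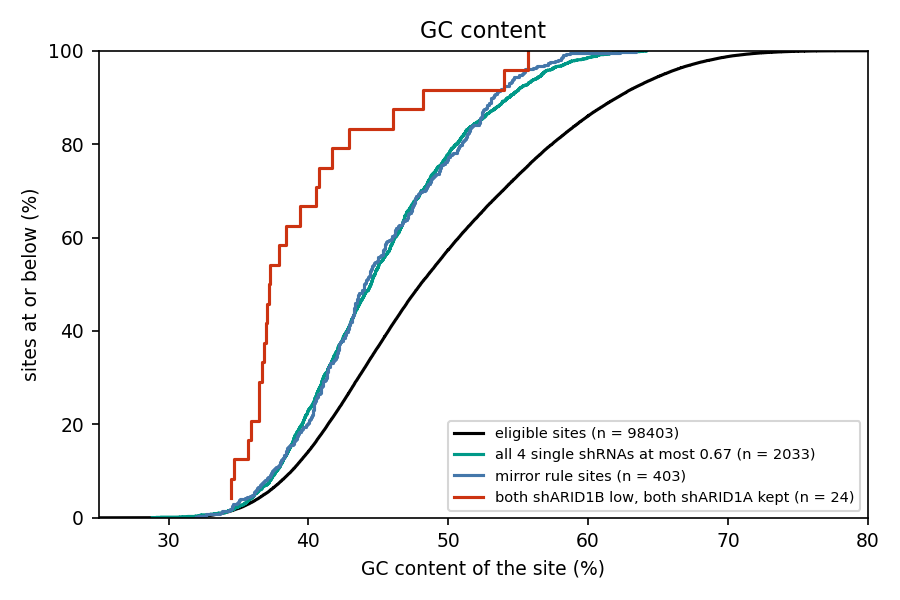
Share of sites (y axis, %) at or below each GC content (x axis, %) for the 24 sites (red), 403 mirror sites (blue), 2033 sites low with all 4 single shRNAs (green) and 98403 eligible sites on the reference sequences (black). The red curve lies to the left of the others, with a median of 37.2% against 48.0% for eligible sites.

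In the central 300 bases the E-box CATCTG, searched on both strands, was found in 10 of 24 sites, 41.7%, against 22.6% of eligible sites, 27.5% of mirror sites and 42.2% of sites low with all 4 single shRNAs. The share was thus close to that of the sites low with all 4. The 10 were KIAA1211, RAG1 and RNU6-75P, printed above, with RP11-15K3.1, MIR6082, FBXO8, RP11-756H20.1, LOC102557615, LOC100506489 and LOC100506557. The ETS motif GGAAGT was in 7 sites, 29.2%, against 17.3% of eligible sites. The AP-1 motif TGANTCA was in 1 site, LOC102723430, 4.17% against 9.90% of eligible and 14.9% of mirror sites. The GC-rich motifs of SP factors (CCGCCC) and AP-2 (GCCNNNGGC) were in 1 and 0 sites, against 17.8% and 14.8% of eligible sites. The sites are poor in GC, whose part in these shares was not tested, and a match does not show binding.

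Within 100 kb of them lay 177 other eligible sites, a median of 6 per member, and 1 member, RP11-15K3.1, had none. The median shARID1B ratio of these neighbours, which the rule did not choose, was 0.897 and their median shARID1A ratio 0.907, against 0.980 and 0.968 for all eligible sites. Both shARID1B means were at most 0.67 times Control at 14 neighbours, 7.91%, against 3.68% of eligible sites, and both shARID1A means at 17, 9.60%, against 7.30%. At SLC10A2 both of its 2 neighbours were low with both shARID1B and with both shARID1A shRNAs, whereas the 9 neighbours of KIAA1211 had a median shARID1B ratio of 1.003 and 0 were low.

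None of the 24 had its nearest gene in any of 8 lists, among them adrenergic regulators (225 eligible sites, 12 of them low with both shARID1B shRNAs), mesenchymal regulators (131 and 2), neural crest and Schwann lineage genes (45 and 5), integrins (82 and 5), cadherins (160 and 9) and axon guidance genes (425 and 25). The BAF, PBAF and ncBAF subunit genes had 125 eligible sites, 7 of them low with both shARID1B shRNAs, and the D-type cyclins and partners had 27 and 0. The axon guidance list, the one with the most sites, held 0.432% of eligible sites, and the others between 0.0274% and 0.229%. With shares this small, 0 of 24 is near the background, and no absence is read from it.

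The libraries had between 16140029 and 44472230 reads in sites. Replicates 1 and 2 of shARID1B.3 and of shARID1A/B.2.3 were the deepest, and deeper libraries carry less counting error. Promoter sites took 20.0% to 20.6% of the reads in Control and 24.8% to 25.1% in shARID1A/B.4.2, the highest of any group, and their part in the CPM of other sites was not tested beyond the promoter scaling above. At 14 of the 24 sites replicate 2 was the highest of the 3 shARID1A/B.2.3 libraries, and at 13 replicate 2 was the highest Control library, against 34.8% and 37.99% of eligible sites. Without replicate 2 of shARID1A/B.2.3, 6 of the 24 were called higher than in shARID1A/B.4.2, the lost one being LINC00276, and the fall at CCDC102B against Control no longer passed (edgeR adjusted p = 0.0139).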

How the data were processed

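ATAC-Seq libraries of 21 transduced SK-N-BE(2) cultures were aligned to GRCh38 by the authors, per the labels, with an aligner and peak caller not given in the sources used here. Tables deposited by the authors hold raw read counts per library over a shared set of 367900 sites, together with normalised counts, their own DESeq2 log2 ratios and adjusted p-values, all unused here, and a HOMER annotation of the nearest gene. CPM were counts over the column sum. Tests used edgeR 4.0.16 under R 4.3.3: quasi-likelihood fits of all 21 libraries in 1 model, TMM factors between 0.948 and 1.06, filterByExpr (minimum count 10, leaving 357029 sites), Benjamini-Hochberg adjustment over all of them and a threshold of 0.01. The common biological coefficient of variation was 0.0817. Fits with a library left out kept the tested sites and trended dispersion of the complete fit. The fit was tested on simulated counts. GENCODE release 44 and the hg38 sequence gave annotation and GC content; 1 eligible site lies on a viral contig and has no GC value.

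The members, lists and motifs were chosen with earlier results of these data known. Named sites were those with the lowest ARID1B ratios, the highest Control level, the extremes of the combinations and of the difference between them, and those nearest each limit. GRAMD3, FBXO8 and LOC101929590 fall outside these and were named after their values were seen, to account for every member. Some items are not reported here. The labels give replicate numbers 1 to 3 in each group. Same-numbered deviations from the group mean correlated between 0.240 and 0.576 for Control and shARID1A/B.2.3 and between 0.106 and 0.371 for shARID1A.2 and shARID1A/B.2.3. The numbers were read as pairing these groups, from the data only. The correlations were negative, from -0.376 to -0.0473, for Control and shARID1B.2, and from -0.375 to -0.0202 for shARID1B.2 and shARID1A/B.2.3. The pairing is thus uncertain, and the main fit held no replicate block, which was run as an alternative. Replicates differed by more than counting noise, with a chi-square of 1.08 to 2.51 per degree of freedom over 21 pairs, and were counted separately. Alternatives were other scalings (DESeq2 size factors, total counts, promoter sites), no filter, the DESeq2 1.42.0 Wald test, a threshold of 0.05, the replicate block, each library left out and other limits of the rule.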

Additional observations from a re-analysis of the deposited data

Results flagged for a closer look

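At 9 of the 24 sites the combinations differed from each other by a direct test of the difference (edgeR, adjusted p under 0.01). Log2 of shARID1A/B.2.3 over shARID1A/B.4.2 was 1.16 at KC6, 1.22 at CD226, 0.56 at LOC102723430, 0.85 at PCAT5, 0.51 at LOC102557615, 0.80 at LINC00276 and 0.46 at KIAA1211, where shARID1A/B.4.2 was the lower. It was -0.99 at CCDC102B and -0.56 at LINC01014, where shARID1A/B.2.3 was the lower. The call at LINC01014 was lost with total counts (-0.47), promoter scaling (-0.39) and without any one of 4 of the 6 libraries. The call at LINC00276 was lost without replicate 2 of shARID1A/B.2.3 (0.60) or replicate 1 of shARID1A/B.4.2 (0.70), and that at KIAA1211 without replicate 2 of shARID1A/B.4.2 (0.40). The cause of the differences was not tested.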

How the results depend on the processing

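The number of sites that met the rule depended on its limits: 57 with a Control minimum of 1 CPM, 12 with 5 CPM, 2 with an ARID1B limit of 0.5 and 12 with an ARID1A limit of 1. It was 27 with TMM-scaled CPM (21 shared with the 24) and 25 with promoter scaling (10 shared), so scaling changed which sites were chosen more than how many. Without 1 library, or without 1 replicate number of every group, it lay between 17 and 34, and 7 of the 24 were kept in all 15 settings that left out 1 library. Scaling on promoter sites moved the median log2 change of all tested sites against Control to -0.12 for shARID1A/B.2.3 and -0.34 for shARID1A/B.4.2, from 0.05 and -0.00, and moved that of shARID1A/B.2.3 against shARID1A/B.4.2 to 0.19 and that of shARID1A/B.4.2 against shARID1B.2 to -0.26. With it, sites called lower with shARID1A/B.2.3 rose from 8 to 13 and sites called higher in shARID1A/B.4.2 over shARID1B.2 fell from 3 to 1. Sites called lower in shARID1A/B.2.3 than in shARID1A/B.4.2 were 1 in place of 2 with total counts and with promoter scaling. Leaving out 1 library gave 11 to 15 sites called lower for the mean of both combinations, 7 to 10 for shARID1A/B.2.3 and 12 to 16 for shARID1A/B.4.2. Between the combinations it gave 6 to 8 higher and 1 to 2 lower. Against shARID1A.2, shARID1A.4, shARID1B.3 and shARID1B.2 it gave 9 to 10, 13 to 14, 10 to 12 and 2 to 3. The DESeq2 Wald test called 13 sites lower for the mean of both combinations, and with the replicate block 16 were called, 10 for shARID1A/B.2.3 and 17 for shARID1A/B.4.2. The block moved no count by over 1.5 times, and in none of the 21 pairs of groups did every library correlate best with its own number. Other counts stayed within 1.5 times the reported ones. Of 1125 recomputed values for the 90 single-site calls, 1030 kept the call, 95 lost it and 0 reversed. Reads per library ran from 13 to 69 at RNU6-75P, among the sparsest sites, and from 385 to 1609 at LOC102723430. No detection limit was computed, so a site without a call is not shown to be unchanged.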
